A study of Mus musculus with 8 samples.

Results

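A set of 9 genes that place a T cell between the naive, memory and effector states was followed through RNA-seq libraries of brain T cells and microglia from aged mice. They are the transcription factors Tcf7, Lef1, Bach2, Tbx21, Eomes, Id2 and Id3, the homing receptor Ccr7 and the survival gene Bcl2. They were taken by symbol from the count table, and all 9 were present among its 24924 usable genes. No measured value served as a filter, but the list was chosen with earlier results of these data known. The 8 libraries fell into 4 groups of 2: brain T cells from mice given interleukin-5 (IL-5), brain T cells from mice given phosphate-buffered saline (PBS), microglia from IL-5 mice and microglia from PBS mice. All mice were C57BL/6 and 20 to 22 months old. IL-5 was injected at 2 µg each day for 2 days, and the cells were sorted from the brain by surface markers. The labels name no Cre, transgene or other allele, and they do not say whether a library came from 1 mouse, from several, or from a mouse of its own. The p-values below therefore measure only the spread between these samples.

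Naive and memory T cells depend on Tcf7, which encodes TCF1, and on its relative Lef1, both DNA-binding partners of beta-catenin. Bach2 is a repressor that holds back effector genes. Tbx21 (T-bet) and Eomes are T-box factors of cytotoxic and memory CD8 cells. Id2 and Id3 bind E proteins and keep them from DNA, with Id2 tied to effector cells and Id3 to naive and long-lived memory cells. Ccr7 brings naive and central memory cells into lymph nodes, and Bcl2 blocks the mitochondrial route of cell death. T cells that live in tissue usually lose Ccr7, Tcf7 and Lef1 as they settle, so the balance of these genes is a common way to describe brain T cells.

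The libraries held 23536908 to 30423828 gene counts. Where a gene had 0 counts, the limit was set at 3 counts in that library, equal to 0.0986 to 0.127 counts per 1000000 (CPM), and this limit covers counting error only. The markers of each labelled population were higher in its own libraries. Summed over 14 T cell markers, T cells held 4230 to 5069 CPM after IL-5 and 5821 to 6744 CPM after PBS, with no marker at 0, and microglia held 20.2 to 167 CPM after IL-5 and 71.1 to 89.4 CPM after PBS. Summed over 16 microglial markers, T cells held 397 to 622 CPM after IL-5 and 433 to 437 CPM after PBS, against 59248 to 81124 CPM in the 4 microglia libraries. In T cells Sparc alone gave 439 and 286 CPM of these sums after IL-5 and 329 and 296 CPM after PBS. Summed over 8 choroid plexus markers, T cells held 113127 to 116517 CPM after IL-5 and 59118 to 84249 CPM after PBS, above their T cell markers in every library. Microglia held 60061 to 64106 CPM of them after IL-5 and 36013 to 43286 CPM after PBS. Neutrophil markers stood at 13513 to 17537 CPM in microglia libraries. Microglia IL-5 replicate 1 and replicate 2 differed most among the replicate pairs, with a median absolute log2 difference of 1.14 over tested genes, against 0.62 to 0.74 in the other groups. The labels give no batch or date.

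In T cells the most abundant of the 9 genes per length was Id2. Levels per length are given as TPM, transcripts per 1000000, from the union of annotated exons. Id2 lay at 1038 and 966 TPM in T cells after IL-5 and at 1558 and 1340 TPM in T cells after PBS. Id3 came next, at 634 and 287 TPM after IL-5 and 556 and 471 TPM after PBS. All 4 Id2 values stood above all Id3 values.

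Tcf7 followed, at 291 and 213 TPM in T cells after IL-5 and 186 and 294 TPM after PBS, and its range met that of Id3. Bcl2, Ccr7 and Tbx21 formed a middle group with medians of 127, 122 and 106 TPM over the 4 T cell libraries, and their ranges overlapped. Eomes and Lef1 were lower, with medians of 38.4 and 39.7 TPM, and Bach2 was last, with a median of 1.05 TPM and a range of 0.0786 to 3.73 TPM. With the length of the longest transcript in place of the union of exons, the median of Lef1 became 75.3 TPM, above that of Eomes at 35.3 TPM, and its range met that of Tbx21. By median Lef1 thus stood above Eomes with either length, and whether its range met that of Tbx21 depended on the length used. In microglia the order was different: Id3 and Id2 had medians of 382 and 349 TPM with overlapping ranges, and none of the other 7 genes exceeded 15.8 TPM in any microglia library.

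**Figure D1:**
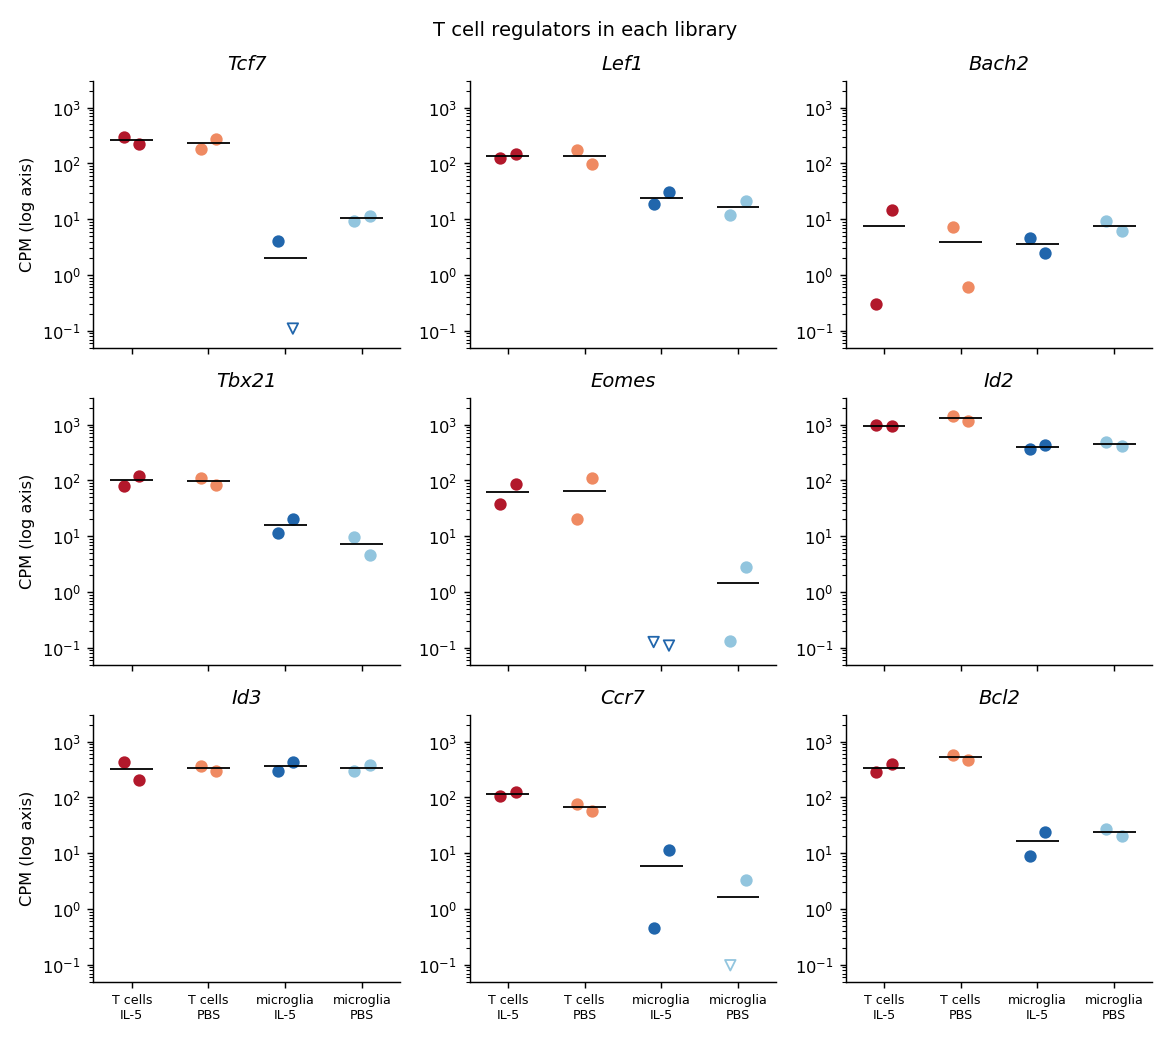
Each panel shows 1 gene, with CPM on a log axis and the 8 libraries in 4 groups. Points are libraries, lines are group means, and open triangles mark libraries with 0 counts, drawn at the level of 3 counts. Id2 and Id3 are high in all 8 libraries. Bcl2, Lef1, Tbx21, Tcf7, Eomes and Ccr7 are higher in every T cell library than in any microglia library, and Bach2 is spread widely among T cells.

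Bcl2 set T cells apart from microglia most clearly. It measured 285 and 402 CPM in T cells after IL-5, against 8.84 and 24.2 CPM in microglia after IL-5. After PBS it measured 577 and 475 CPM in T cells, against 27.8 and 20.3 CPM in microglia. All 4 T cell values exceeded all 4 microglia values. Bcl2 was higher in T cells after IL-5 (log2 fold change of 3.60 with SE 0.47, edgeR adjusted p = 0.00296) and after PBS (3.75, SE 0.47, edgeR adjusted p = 0.00216).

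Tbx21, the master factor of type 1 and cytotoxic programmes, measured 80.9 and 119 CPM in T cells after IL-5 and 11.3 and 20.1 CPM in microglia after IL-5. After PBS it measured 112 and 82.9 CPM in T cells and 9.83 and 4.64 CPM in microglia. T cells and microglia did not overlap under either treatment. The difference passed the threshold after PBS (log2 fold change of 3.05 with SE 0.60, edgeR adjusted p = 0.0181) and did not after IL-5 (1.87, SE 0.57, edgeR adjusted p = 0.0832).

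Lef1, the partner of Tcf7, measured 125 and 149 CPM in T cells after IL-5, against 18.5 and 30.6 CPM in microglia. After PBS it measured 173 and 98.0 CPM in T cells, against 11.7 and 21.2 CPM in microglia. It also showed no overlap, was higher in T cells after PBS (log2 fold change of 2.34 with SE 0.51, edgeR adjusted p = 0.0253), and did not pass after IL-5 (1.68, SE 0.50, edgeR adjusted p = 0.0729). Whether the contrast of Lef1 or Tbx21 differs between treatments is the test of the response difference, given further below.

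Eomes measured 38.6 and 87.7 CPM in T cells after IL-5 and had 0 counts in both microglia libraries after IL-5. By CPM it was thus at least 531-fold higher in T cells, taking 3 counts per library as the level that a count of 0 allows. This bound carries no TMM scaling, the correction for composition used in the test (edgeR adjusted p = 0.0164). The TMM factors were 1.27 and 1.32 in T cells after IL-5 and 0.638 and 0.819 in microglia after IL-5. On the scale of the test the bound is therefore lower. After PBS it measured 20.6 and 110 CPM in T cells, against 0.131 and 2.76 CPM in microglia. The T cell libraries were above the microglia ones there too, but the difference did not pass (log2 fold change of 4.81 with SE 1.50, edgeR adjusted p = 0.0999).

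The members that passed in either contrast, called here when the edgeR adjusted p was under 0.05, are Bcl2, Tbx21, Lef1 and Eomes. Of the 9 members, 3 were higher in T cells after PBS, where 2.57% of the 15397 tested genes were called higher and 4.6% lower. After IL-5, 2 members were higher, where 2.49% of tested genes were called higher and 5.73% lower. No member was called lower in T cells. DESeq2 called 5 members higher after IL-5, where it called 7.09% of its genes higher and 10.1% lower, and 6 after PBS, where it called 7.38% higher and 9.44% lower. The median log2 fold change of the 9 members was 1.87 after IL-5 and 3.05 after PBS, against 0.19 and 0.06 over all tested genes. In these bulk samples, fewer cells of a type and less RNA per cell cannot be told apart.

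Tcf7 showed a wide gap in level between the populations, but its replicates in microglia after IL-5 lay far apart. Elsewhere its replicates differed by 0.41 in T cells after IL-5, 0.58 in T cells after PBS and 0.27 in microglia after PBS, on the log2 scale. It measured 295 and 224 CPM in T cells after IL-5, against 4.08 CPM and 0 counts in the microglia after IL-5, and 183 and 277 CPM in T cells after PBS, against 9.47 and 11.6 CPM in microglia. No library of microglia came near any of T cells, yet the difference passed neither after IL-5 (log2 fold change of 6.00 with SE 1.64, edgeR adjusted p = 0.0664) nor after PBS (3.76, SE 1.46, edgeR adjusted p = 0.182). The 2 microglia IL-5 libraries, 6.09 apart on the log2 scale, entered the variance of both tests. Without microglia IL-5 replicate 1 the PBS contrast of Tcf7 gave a log2 fold change of 3.68, and without replicate 2 it gave 3.68. The IL-5 contrast gave 4.87 without replicate 2, and without replicate 1 the remaining microglia library holds 0 counts. Leaving out either library removes the spread of this pair and leaves 1 library in the group. Whether these fits pass the threshold is therefore no evidence on the difference.

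Ccr7 measured 107 and 124 CPM in T cells after IL-5, against 0.467 and 11.4 CPM in microglia. After PBS it stood at 76.7 and 57.2 CPM in T cells, against 0 counts and 3.31 CPM in microglia. The groups did not overlap, and neither difference passed (log2 fold change 3.60, SE 1.81 after IL-5, and 4.65, SE 1.91 after PBS; edgeR adjusted p = 0.289 and 0.198).

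Id2 and Id3, the inhibitors of E proteins, were abundant in both populations. Id2 measured 976 and 942 CPM in T cells after IL-5, against 369 and 436 CPM in microglia. After PBS it stood at 1426 and 1173 CPM in T cells, against 484 and 415 CPM in microglia. Its T cell libraries all stood above its microglia libraries, but the differences did not pass after IL-5 (log2 fold change 0.42, SE 0.30) or after PBS (0.83, SE 0.30, edgeR adjusted p = 0.138). Id3 measured 438 and 206 CPM in T cells after IL-5, against 293 and 436 CPM in microglia. After PBS it stood at 374 and 303 CPM in T cells, against 301 and 376 CPM in microglia. On these CPM the groups overlapped under both treatments. After TMM scaling, which corrects for composition, both T cell libraries lay below both microglia libraries under either treatment, with log2 fold changes of -0.98 (SE 0.41) after IL-5 and -0.70 (SE 0.40) after PBS, neither past the threshold. With scaling by library size only the PBS value turned to 0.0012.

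Bach2 measured 0.301 and 14.8 CPM in T cells after IL-5, against 4.67 and 2.53 CPM in microglia. After PBS it stood at 7.16 and 0.622 CPM in T cells, against 9.24 and 6.22 CPM in microglia. The T cell replicates differed 5.30 on the log2 scale after IL-5 and 3.40 after PBS, larger than in 92.6% and 85.7% of tested genes. No contrast of Bach2 could be read at that spread (log2 fold change 0.14, SE 2.05 after IL-5, and -1.69, SE 2.11 after PBS). A gene on the opposite strand, Bach2os, shares exonic bases with Bach2 and had 0 and 2 counts in T cells after IL-5, 0 and 0 in T cells after PBS, 319 and 157 in microglia after IL-5 and 146 and 90 in microglia after PBS. The strand setting of the counting is not given in the sources used here, so reads of this pair cannot be told apart with certainty. Lef1, Eomes and Bcl2 also share exonic bases with antisense genes of the annotation that were not counted in the table.

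Counted over groups that do not overlap on TMM-scaled log2 CPM, 7 of the 9 members were above in both T cell libraries after IL-5, where 28.9% of tested genes were, and Id3 alone was below, where 24.3% were. After PBS 7 members were above (29.1% of tested genes) and 2, Bach2 and Id3, were below (29.9%). Calls of single members rested on single libraries. Without T cells PBS replicate 1, Lef1 gave 1.88 (edgeR adjusted p = 0.159) and Tbx21 gave 2.82 (edgeR adjusted p = 0.0801). Without microglia PBS replicate 1, Lef1 gave 1.95 (edgeR adjusted p = 0.184), and without microglia PBS replicate 2, Lef1 gave 2.73 and Tbx21 gave 2.51 (edgeR adjusted p = 0.0737 and 0.135).

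In that last fit Eomes and Ccr7 were called as well (edgeR adjusted p = 0.0394 and 0.0336). Without either microglia IL-5 library, Id2 was called after PBS (log2 fold change 0.76, edgeR adjusted p = 0.0429). Eomes was not called after IL-5 without microglia IL-5 replicate 1 (edgeR adjusted p = 0.0603). Bcl2 stayed past the threshold in the PBS contrast in every fit made, with log2 fold changes of 3.44 to 4.45. After IL-5 it passed in all fits but the one restricted to the 4 libraries of that contrast (3.59, edgeR adjusted p = 0.052).

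**Figure D2:**
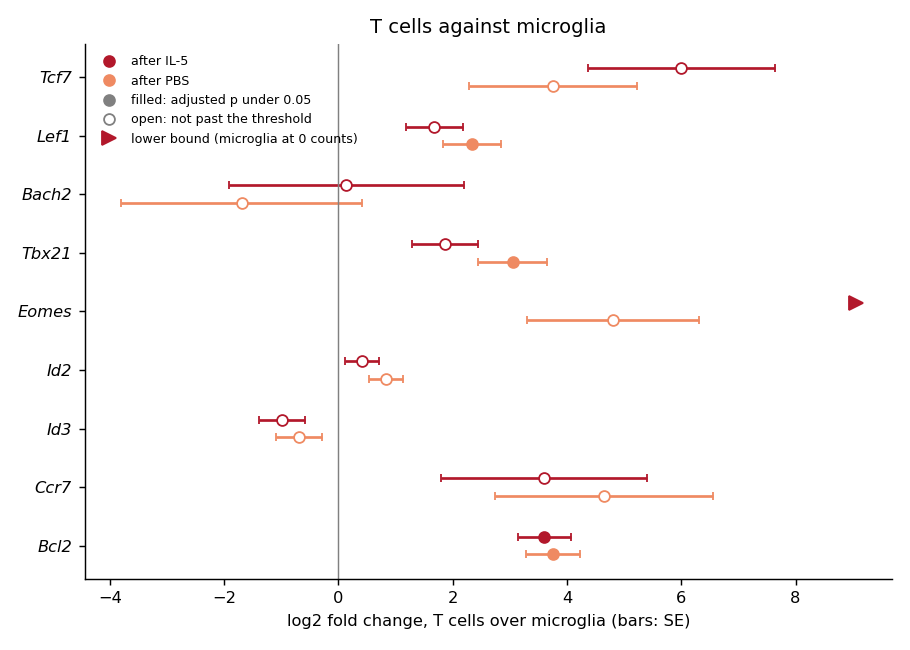
The horizontal axis is the log2 fold change of T cells over microglia, and each gene has 1 point after IL-5 and 1 after PBS with SE bars, n = 2 libraries per group. Filled points have an edgeR adjusted p under 0.05. The triangle for Eomes after IL-5 is the lower bound of 531-fold, taken on CPM without the TMM scaling of the other points. Bcl2 is filled under both treatments and has short bars, while Tcf7, Ccr7 and Bach2 have long ones.

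The promoters shown are those of the 4 members called in either contrast, chosen by threshold and not by size of difference. Each is the 250 bases before the first start that the RefSeq promoter table gives for the gene on GRCm38.p6, written 5′ to 3′ on the strand of the gene, and capitals mark the letters CANNTG, the E-box to which E proteins bind when no Id protein holds them. CANNTG reads the same on both strands. Bcl2 lies on chr1:106538178-106714274 on the minus strand, Tbx21 on chr11:97098071-97115331 on the minus strand, Lef1 on chr3:131110471-131224356 on the plus strand and Eomes on chr9:118478212-118486132 on the plus strand, by GENCODE M21 on GRCm38.
Bcl2 chr1:106714291-106714540: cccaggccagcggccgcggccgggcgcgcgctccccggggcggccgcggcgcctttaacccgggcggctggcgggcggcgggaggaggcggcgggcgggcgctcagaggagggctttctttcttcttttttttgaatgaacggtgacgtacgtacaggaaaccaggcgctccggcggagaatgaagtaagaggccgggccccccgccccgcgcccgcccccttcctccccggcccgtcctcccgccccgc
Tbx21 chr11:97115332-97115581: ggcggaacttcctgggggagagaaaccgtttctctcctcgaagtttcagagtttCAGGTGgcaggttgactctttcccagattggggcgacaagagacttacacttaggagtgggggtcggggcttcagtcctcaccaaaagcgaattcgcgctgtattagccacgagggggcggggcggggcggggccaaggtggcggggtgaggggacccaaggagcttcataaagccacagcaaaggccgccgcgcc
Lef1 chr3:131110047-131110296: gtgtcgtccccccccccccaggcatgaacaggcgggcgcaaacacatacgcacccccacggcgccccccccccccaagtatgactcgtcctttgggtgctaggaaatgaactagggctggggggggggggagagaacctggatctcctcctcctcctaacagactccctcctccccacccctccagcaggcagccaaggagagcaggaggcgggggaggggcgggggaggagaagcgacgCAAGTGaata
Eomes chr9:118477939-118478188: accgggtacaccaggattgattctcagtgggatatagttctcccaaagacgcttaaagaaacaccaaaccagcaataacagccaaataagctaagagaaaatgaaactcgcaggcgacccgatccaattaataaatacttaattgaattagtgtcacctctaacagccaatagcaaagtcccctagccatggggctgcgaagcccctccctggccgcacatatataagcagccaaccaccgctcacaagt

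Of the 9 members, 8 had an entry in that table, and Ccr7 had none. The E-box letters stood in 4 of the 8 windows, those of Tcf7, Lef1, Tbx21 and Id2, and in 66.0% of all 27025 promoters of the same length. The letters CTTTGA, the core that TCF1 and LEF1 bind, were searched on both strands and stood in 1 window, that of Bach2, and in 14.0% of all promoters. The T-box letters GGTGTGA, searched on both strands, stood in none of the 8 windows and in 3.31% of all promoters. None of the 3 motifs contains another. The windows of Bach2, Id2 and Id3 lie inside the gene as GENCODE M21 draws it, that of Tcf7 lies inside the gene as RefSeq draws it, and the end of that of Eomes does too, so these 5 are not wholly upstream of every annotated start. The other 3, those of Lef1, Tbx21 and Bcl2, lie outside both, and 2 of them held the E-box letters. A match or its absence describes only these windows.

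The companion genes were grouped by role. The list of naive and memory genes held 18, of which 4 were higher and 1 lower in T cells after IL-5, and 3 higher and 1 lower after PBS. Over all tested genes 2.49% were called higher and 5.73% lower after IL-5, and 2.57% and 4.6% after PBS. The same shares are the background for each list below. Il7r, the receptor for the survival cytokine interleukin-7, measured 130 and 196 CPM in T cells after IL-5, against 0 and 1.14 CPM in microglia, and passed in both contrasts (log2 fold change 7.42, SE 1.25 after IL-5, and 6.19, SE 1.17 after PBS). Ets1, a T cell transcription factor, was higher by 1.69 (SE 0.37) after IL-5 and 2.06 (SE 0.37) after PBS, and Satb1, a chromatin organiser of T cells, by 3.41 (SE 0.85) and 4.50 (SE 0.90) in the same order. Klf2, which controls exit from tissue and is also known in endothelium and myeloid cells, was lower in T cells (log2 fold change -1.67 after IL-5 and -1.76 after PBS, SE 0.36 each).

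Of 21 effector companions, 4 were higher and 2 lower after IL-5, where 2.49% and 5.73% of tested genes were. After PBS 4 were higher and 1 lower, where 2.57% and 4.6% were. Prf1, which encodes the pore-forming protein perforin, measured 67.0 and 67.4 CPM in T cells after IL-5 and 63.7 and 134 CPM after PBS, and had 0 counts in all 4 microglia libraries. Il2rb, a chain of the receptors for interleukin-2 and interleukin-15, and Bhlhe40, a factor of tissue-resident T cells, were higher by 3.34 (SE 0.64) and 3.10 (SE 0.45) after IL-5 and by 4.20 (SE 0.66) and 3.64 (SE 0.46) after PBS. Stat4, which relays interleukin-12, was also called in both contrasts, but in neither without a filter on counts (edgeR adjusted p = 0.155 in each). It was not called after IL-5 with only the 4 libraries of that contrast (edgeR adjusted p = 0.132). Cx3cr1, a chemokine receptor of effector T cells and of microglia, was lower in T cells (log2 fold change -6.98, SE 1.28 after IL-5, and -8.09, SE 1.34 after PBS). Gzma, a granzyme of cytotoxic cells, measured 5.83 and 33.0 CPM in T cells after IL-5, against 178 and 123 CPM in microglia, and was called lower there. Stat4 and Gzma were named after their values were seen.

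The partners of the members came next. None of the 14 cofactors of TCF and LEF proteins was called in either contrast. Among 15 tested relatives of Bcl2, which either block or drive cell death, 0 were called higher and 6 lower after IL-5. After PBS 0 were called higher and 4 lower, and 14 of the 15 lay below 0 in each contrast. Over all tested genes 2.49% were called higher and 5.73% lower after IL-5, and 2.57% and 4.6% after PBS. Of all tested genes 53.8% lay above 0 after IL-5 and 51.1% after PBS. Mcl1 was lower in T cells in both contrasts (log2 fold changes -1.56 after IL-5 and -1.31 after PBS, SE 0.33 each) and Bcl2l1, which encodes Bcl-xL, was lower after PBS only by the test (-1.91, SE 0.36, against -0.69, SE 0.35 after IL-5). Bcl2a1a and Bcl2a1b, near-identical copies whose reads may be shared, were lower too.

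Of 10 genes of the Bach, Maf and AP-1 families, 0 were called higher and 4 lower in each contrast: Batf3, Mafg, Junb and Jund. Over all tested genes 5.73% were called lower after IL-5 and 4.6% after PBS. Of 5 E proteins and further Id genes, Tcf12 was higher after PBS (2.73, SE 0.59) and Id1 lower after IL-5 (-1.79, SE 0.41). Of 6 ligands and relatives of the CCR7 system 4 could be tested, and Cxcl13, a chemokine of B cell follicles, was called lower in both contrasts: it had 0 counts in all 4 T cell libraries, against 3.40 and 13.0 CPM in microglia after IL-5 and 16.5 and 48.5 CPM in microglia after PBS. Scaled by library size only, the log2 median of all genes moved to 1.01 after IL-5 and 0.75 after PBS, and the calls of Klf2, Mcl1, Junb and Mafg were lost in both contrasts. With that scaling the Bcl2 relatives called lower numbered 2 after IL-5 and 1 after PBS, and the Bach, Maf and AP-1 genes 1 in each contrast. Gzma, Id1, Bax and Batf3 lost their calls after IL-5, and Bcl2l1, Bcl2a1b and Jund lost theirs after PBS. Of the 20 and 19 companion calls named for the IL-5 and the PBS contrast, 5 and 4 held when each of the 8 libraries was left out in turn.

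The comparison of IL-5 with PBS asked what the cytokine changed in brain T cells, and none of the 9 members passed the test. Of 13897 genes tested, 0 were called higher (0.0%) and 0 lower (0.0%) by edgeR, and before adjustment 355 (2.55%) had a positive and 245 (1.76%) a negative log2 fold change with p under 0.05. DESeq2 called 184 higher (1.08%) and 55 lower (0.324%). No member was among any of these genes. Ccr7, Bcl2 and Id2 had the smallest unadjusted p among the members.

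Ccr7 measured 107 and 124 CPM in T cells after IL-5, against 76.7 and 57.2 CPM in T cells after PBS. Both IL-5 libraries stood above both PBS libraries, and the log2 fold change was 0.83 (SE 0.34, unadjusted p = 0.0526 and adjusted p = 1.0 by edgeR). Bcl2 measured 285 and 402 CPM with IL-5, against 577 and 475 CPM with PBS. Both IL-5 libraries stood below both PBS libraries, and the log2 fold change was -0.57 (SE 0.24, unadjusted p = 0.0555 by edgeR).

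Id2 measured 976 and 942 CPM with IL-5, against 1426 and 1173 CPM with PBS. It too did not overlap, with both IL-5 libraries below (log2 fold change -0.39, SE 0.16, unadjusted p = 0.0565 by edgeR). Among the 9 members 1 lay above without overlap, where 18.1% of tested genes did, and 2 lay below, where 17.3% did. Over the alternative fits the log2 fold changes ranged from 0.62 to 1.07 for Ccr7, -0.83 to -0.36 for Bcl2 and -0.54 to -0.16 for Id2. Groups that do not overlap keep their direction when a library is left out, and the other fits reuse the same libraries. The constant directions are therefore no further evidence of a change.

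The other 6 members overlapped between treatments. Tcf7 measured 295 and 224 CPM with IL-5, against 183 and 277 CPM with PBS, a log2 fold change of 0.22 (SE 0.29). Lef1 and Tbx21 gave 0.06 (SE 0.36) and 0.09 (SE 0.36), Id3 gave -0.02 (SE 0.38) and Eomes gave 0.00 (SE 0.83). Bach2 gave 0.99 with an SE of 2.47. A p that misses the threshold does not show that a level was unchanged.

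**Figure D3:**
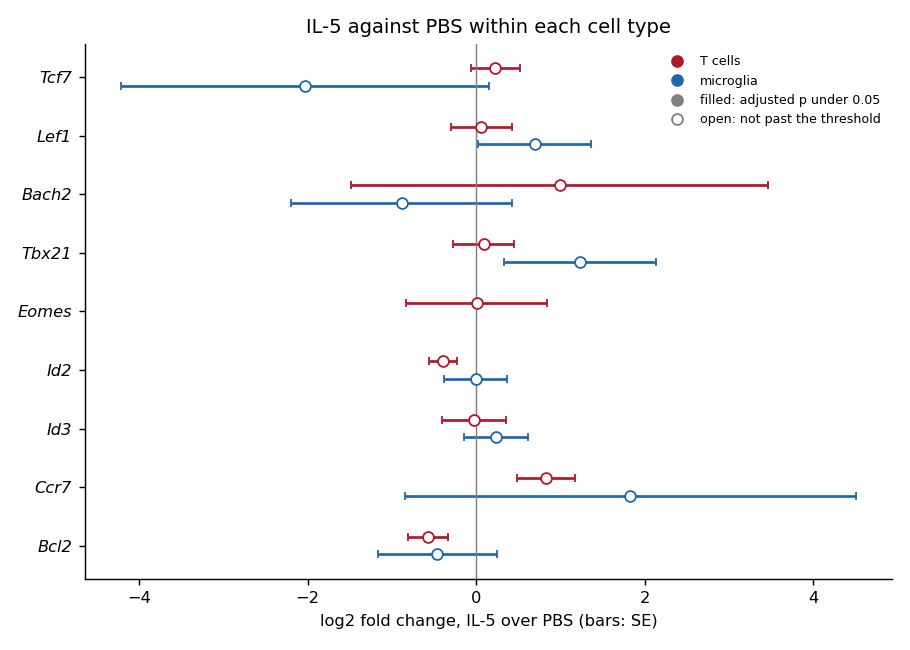
The horizontal axis is the log2 fold change of IL-5 over PBS, with a point and SE bar for T cells and for microglia for each gene, n = 2 libraries per group. All points are open, since no member passed the threshold. Ccr7, Id2 and Bcl2 have the T cell points whose bars lie clear of 0. Eomes has no microglia point because its counts there were too low to test.

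Summed levels of cell type markers also differed in the same comparison. By edgeR 0 of the 14 T cell markers and 0 of the 8 choroid plexus markers were called. Summed CPM of T cell markers were 4230 to 5069 after IL-5, against 5821 to 6744 after PBS, with 10 of 14 genes below 0 and a median log2 fold change of -0.33. Of all tested genes 49.2% lay above 0, with a median of -0.01. Cd8a and Cd8b1 together held 1248 to 1398 CPM after IL-5 and 1946 to 2130 CPM after PBS. Markers of the choroid plexus, whose sums are given above, had 8 of 8 genes above 0, with Ttr, which encodes transthyretin, at 89983 and 91511 CPM after IL-5 and 65068 and 45089 CPM after PBS.

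Markers of natural killer cells and their relatives, in which Tbx21, Eomes and Id2 are also known, held 195 to 255 CPM after IL-5 and 221 to 312 CPM after PBS in T cells, with 3 to 4 of 10 at 0. The largest parts of these sums were Rora and Gata3. Rora gave 97.6 and 96.0 CPM after IL-5 and 80.4 and 169 CPM after PBS, and Gata3 80.5 and 77.8 CPM, then 76.7 and 71.1 CPM. Ncr1 measured 13.3 CPM and 0 after IL-5 and 10.1 and 10.8 CPM after PBS. Klrb1c measured 6.06 and 5.87 CPM after IL-5 and 18.4 and 10.9 CPM after PBS. Markers of CD4 and regulatory T cells summed to 186 CPM in each IL-5 library and to 127 and 192 CPM in the PBS libraries.

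B cell markers, from a class in which Bcl2 and Ccr7 are also known, held 224 to 341 CPM after IL-5 and 135 to 286 CPM after PBS, with none at 0. Endothelial markers held 1494 to 2450 CPM after IL-5 and 1799 to 1925 CPM after PBS. Dendritic cell markers, a class in which Ccr7 is also known, held 238 to 252 CPM after IL-5 and 229 to 239 CPM after PBS. Bst2 alone gave 220 and 215 CPM of these sums after IL-5 and 211 and 220 CPM after PBS. Zbtb46 reached 31.5 CPM in T cells IL-5 replicate 1, and Xcr1 reached 25.8 CPM in T cells PBS replicate 1. Clec9a, Cd209a and Ccl22 were at 0 in all 4 T cell libraries. The part of these cells in the levels of the members was not tested. With libraries scaled so that the T cell markers were equal, the median of all genes moved to 0.23 and the values became 1.05 for Ccr7, -0.36 for Bcl2, -0.16 for Id2 and 0.52 for Tcf7, none of them called.

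The 7 companion lists in T cells gave 0 calls each by edgeR, and DESeq2 called 1 companion, Cxcr6, lower. Of 18 naive and memory companions 11 lay above 0, with a median of 0.25, against 49.2% of all genes and a median of -0.01. S1pr1, the receptor for exit from tissue into blood and lymph, measured 245 and 211 CPM with IL-5, against 173 and 186 CPM with PBS (log2 fold change 0.39, SE 0.23). Klf2 and Satb1 gave 0.29 (SE 0.24) and 0.76 (SE 0.61), and Il7r gave -0.27 (SE 0.28). Myb, a transcription factor of progenitor and memory T cells, measured 2.38 and 5.65 CPM with IL-5, against 19.3 and 13.2 CPM with PBS. Both IL-5 libraries of Myb stood below both PBS libraries, and it did not pass (log2 fold change -1.97, SE 1.43). The median of this list became -0.27 without T cells IL-5 replicate 2 and 0.50 with scaling to T cell markers.

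Of 21 effector companions 16 lay below 0, with a median of -0.24, and 4 had an unadjusted p under 0.05 by edgeR. Cxcr6, a residency receptor of brain CD8 T cells, measured 602 and 701 CPM with IL-5, against 958 and 1189 CPM with PBS (log2 fold change -0.67, SE 0.18). Runx3, a factor of CD8 and resident cells, measured 57.9 and 65.3 CPM with IL-5, against 122 and 139 CPM with PBS (-1.03, SE 0.31). Fasl, the ligand that triggers death in target cells, and Cxcr3, a receptor for interferon-induced chemokines, gave -1.02 (SE 0.34) and -0.46 (SE 0.17). For all 4 genes both IL-5 libraries stood below both PBS libraries, as in 17.3% of all tested genes. These 4 were named for the smallest p of the list, which favours such a gap. Over all tested genes 1.76% were lower with an unadjusted p under 0.05 by edgeR. Their edgeR adjusted p was 1.0, and DESeq2 called Cxcr6 alone among the companions (log2 fold change -0.68, DESeq2 adjusted p = 0.0202). Without T cells PBS replicate 2 the median of the list turned to 0.07, and with scaling to T cell markers it was -0.03, with 10 genes above 0 and 11 below.

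**Figure D4:**
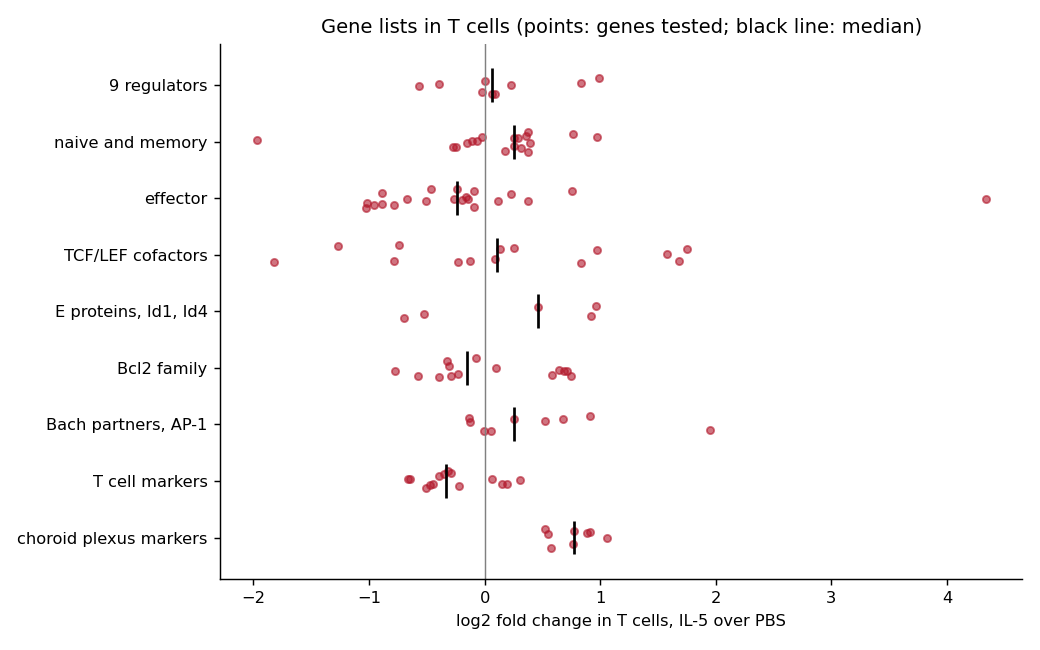
The horizontal axis is the log2 fold change of IL-5 over PBS in T cells, each point is a tested gene, and black lines are medians. The effector list lies mostly left of 0 (median -0.24), the T cell markers too (-0.33), and all 8 choroid plexus markers lie right of 0.

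Partner genes of the members did not pass either. Prdm1, which encodes Blimp-1 and represses Tcf7, gave 0.23 (SE 0.51), and Zeb2, a partner of T-bet in terminal effector cells, gave -0.09 (SE 1.41). Of the 14 tested Bcl2 relatives 6 lay above 0 (median -0.15): Mcl1 gave -0.40 (SE 0.20), Bax -0.31 (SE 0.25), Bcl2l11, which encodes the killer protein BIM, -0.29 (SE 0.43), and Bcl2l1 0.69 (SE 0.32). Of the TCF and LEF cofactors 8 of 14 lay above 0 (median 0.11), with the corepressor Tle1 at 1.68 (SE 0.67) and Ctnnb1, which encodes beta-catenin, at 0.09 (SE 0.25). Of the Bach and AP-1 genes 6 of 9 lay above 0 (median 0.26), with Nfe2l2 at 0.91 (SE 0.37). Of the E protein group 3 of 5 lay above 0 (median 0.46), with Tcf4 at 0.92 (SE 0.46), Tcf12 at -0.70 (SE 0.46) and Tcf3 at -0.52 (SE 0.64). Of the CCR7 group 3 genes could be tested, 2 of them above 0 (median 0.06).

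Ratios between partner genes were taken from TPM within each library, where scaling between libraries drops out. The ratio of Bcl2 to Bcl2l11, a protector over its antagonist, was 6.10 and 7.08 in T cells after IL-5 and 8.94 and 7.15 in T cells after PBS. It was 0.299 and 0.584 in microglia after IL-5 and 0.812 and 0.428 in microglia after PBS. The 4 T cell libraries lay far above the 4 microglia libraries, and both IL-5 T cell values lay below both PBS values by small gaps.

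The ratio of Id3 to Id2 was 0.61 and 0.298 in T cells after IL-5 and 0.357 and 0.352 in T cells after PBS. In microglia it was 1.08 and 1.36 after IL-5 and 0.846 and 1.23 after PBS. The populations did not overlap, and Id2 exceeded Id3 per length in 4 of 4 T cell libraries, while Id3 exceeded Id2 in 3 of 4 microglia libraries.

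The ratio of Eomes to Tbx21 was 0.285 and 0.44 in T cells after IL-5, inside the range of 0.111 and 0.794 in T cells after PBS. Lef1 to Tcf7 was 0.127 and 0.199 after IL-5 and 0.283 and 0.106 after PBS, and Tcf7 to Id2 was 0.281 and 0.221 after IL-5 and 0.119 and 0.22 after PBS. Neither the T-box pair nor the Lef1 and Tcf7 pair separated the treatments. With 2 libraries per group an exact permutation test has 6 assignments and cannot reach 0.05, so the ratios are descriptions.

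**Figure D5:**
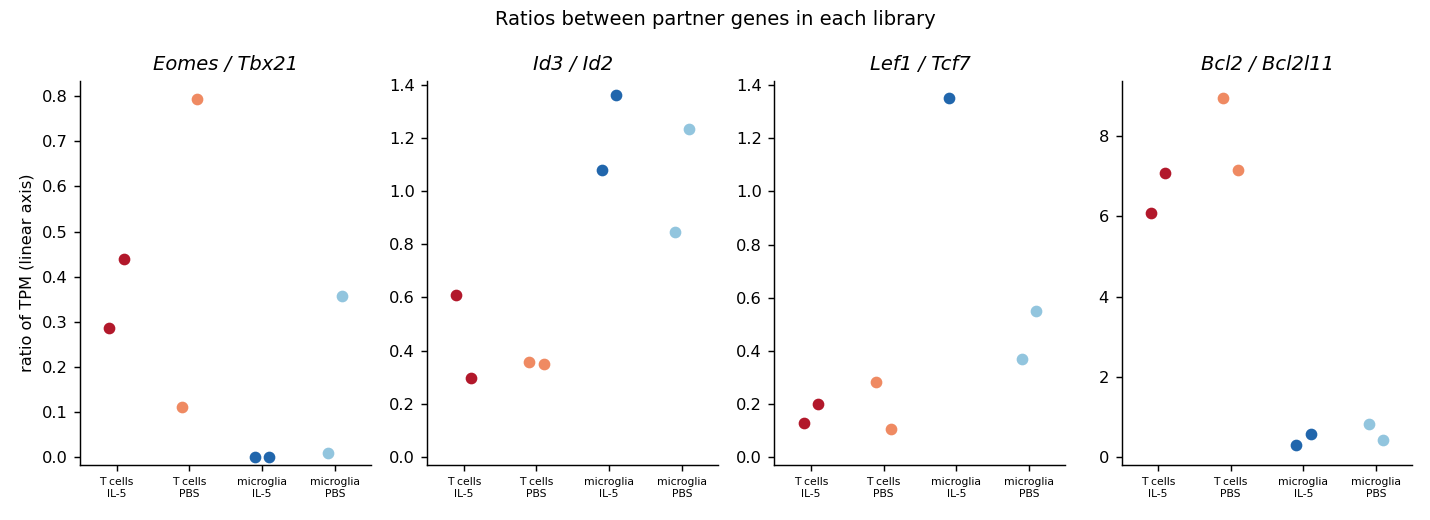
Each panel plots a ratio of TPM on a linear axis for the 8 libraries in 4 groups. Bcl2 over Bcl2l11 is 6.10 to 8.94 in T cells and below 1 in microglia, and Id3 over Id2 is lower in T cells. The Lef1 over Tcf7 panel lacks 1 microglia library whose Tcf7 count is 0.

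In microglia none of the members passed for IL-5 against PBS. Of 13764 genes tested, 0 were called higher (0.0%) and 0 lower (0.0%) by edgeR, and before adjustment 246 (1.79%) had a positive and 371 (2.7%) a negative log2 fold change with p under 0.05. DESeq2 called 39 higher (0.233%) and 80 lower (0.477%). No member was among any of these genes. Without microglia IL-5 replicate 2 edgeR called 532 higher and 723 lower, with no member among them. Eomes did not pass the filter on low counts, and the other 8 members were tested. Lef1 measured 18.5 and 30.6 CPM with IL-5, against 11.7 and 21.2 CPM with PBS, and overlapped on CPM (log2 fold change 0.70, SE 0.67). Tbx21 measured 11.3 and 20.1 CPM with IL-5, against 9.83 and 4.64 CPM with PBS, and both IL-5 libraries stood above (1.23, SE 0.90).

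Bach2 and Tcf7 were below in both IL-5 libraries (log2 fold changes -0.88, SE 1.31, and -2.03, SE 2.18). On TMM-scaled values 2 of the 8 members lay above without overlap, where 17.4% of tested genes did, and 2 below, where 21.1% did. Id2 gave -0.01 (SE 0.38), Id3 0.24 (SE 0.38), Bcl2 -0.46 (SE 0.71) and Ccr7 1.83 (SE 2.68). T cell markers in these libraries held 20.2 to 167 CPM after IL-5 and 71.1 to 89.4 CPM after PBS, with 1 to 7 of 14 at 0 in the IL-5 libraries. Cd8a and Cd8b1 were both at 0 in microglia IL-5 replicate 1. Choroid plexus markers in these libraries had 8 of 8 genes above 0, with sums of 60061 to 64106 CPM after IL-5 and 36013 to 43286 CPM after PBS that did not overlap. By edgeR 0 of these 8 were called, and 49.0% of all tested genes lay above 0. The part of T cells and choroid plexus in the microglial levels was not tested.

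The difference between the responses of T cells and microglia to IL-5 was tested over all 8 libraries. Of 15397 genes 0 were called higher (0.0%) and 0 lower (0.0%) by edgeR, and before adjustment 496 (3.22%) had a positive and 302 (1.96%) a negative difference with p under 0.05. DESeq2 called 174 higher (0.956%) and 74 lower (0.407%). No member was called by either tool, and Eomes alone had an unadjusted p under 0.05. Eomes had the smallest p of the 9 (edgeR adjusted p = 0.904), with microglia counts of 0 and 0 after IL-5 and 4 and 75 after PBS. Tbx21 gave a difference of -1.18 (SE 0.79), Lef1 -0.67 (SE 0.69), Id2 -0.42 (SE 0.42), Id3 -0.29 (SE 0.57) and Bcl2 -0.15 (SE 0.60). Tcf7 gave 2.24 (SE 1.90) and passed only without microglia IL-5 replicate 1, where the remaining library has 0 counts and the group has no spread of its own.

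The genes whose levels ran most like those of the members over the 8 libraries were found by the root mean square difference of centred log2 CPM among 11633 genes. Bcl2 was nearest to Anxa6, an annexin (0.254), and to Cd7, a T cell surface protein (0.39). Tbx21 was nearest to Ctnna1, which encodes alpha-catenin (0.269), and to Jcad, a junction protein (0.323). Lef1 was nearest to Ndufa10 (0.223) and Gpatch4 (0.239), and Tcf7 to Gramd3 (0.369), with Itgal, an integrin of T cells, next at 1.08.

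Eomes ran nearest to Zap70, the kinase of the T cell receptor (0.663), and to the coreceptor gene Cd4 (0.805), and Ccr7 to the receptor gene Gpr171 (0.759) and to Capn2 (0.929). For Id2 the nearest were Zfyve19 (0.115) and Taf12 (0.12), and for Id3 Rnf103 (0.213) and Abhd17a (0.219). Bach2 was nearest to Zfp944 (0.648) and Zfp719 (0.67), which shared its gap between T cell replicates: Zfp719 measured 0.402 and 33.2 CPM in T cells after IL-5 and 5.30 and 0.622 CPM in T cells after PBS. The points of each gene share the difference between cell types and the depth of the libraries.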

How the data were processed

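The values are unscaled counts of reads assigned to each gene, which the authors deposited as 1 table with a column for each of the 8 libraries. Per the submitters' processing notes, STAR 2.5.3a was used, with bcl2fastq 2.20.0.422, Cufflinks 2.0, FastQC 1.0.0 and DESeq2 1.1 also named, and with the builds mm10 and GRCm38; the notes give no order. The counting tool and its strand setting are not given in the sources used here. Of 24953 entries, 2 were summary lines and 27 genes had 53 cells that were not numbers, which left 24924 genes, 97.9% of them annotated by GENCODE M21.

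The tests used edgeR 4.0.16 in R 4.3.3 (quasi-likelihood F test, TMM scaling, filterByExpr with a minimum count of 10, robust dispersion, two-sided, Benjamini-Hochberg over all tested genes, threshold 0.05). IL-5 against PBS was fitted within each cell type, and the remaining contrasts over all 8 libraries. Each SE was derived from the F statistic. CPM are counts per 1000000 gene counts, and TPM use GENCODE M21 exon lengths. The pipeline was tested on simulated data, and a pass was required only at a low simulated spread. Such a pass does not show which changes could be detected at the spread of these libraries. Alternatives were DESeq2 1.42.0, RLE or library size scaling, scaling to cell type markers, other filters, dispersion without the robust option, other sets of libraries, the replicate number as a block, and each library left out. Figures used Python 3.11.15 and matplotlib 3.10.9.

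The members and the 7 companion lists were chosen with earlier results of these data known. Named companions were, per list and comparison, up to 4 genes with the smallest p and up to 2 with the highest level in T cells, plus 7 fixed genes, not all of which are printed; 1 companion, counted in its list, is not reported here. Same-numbered replicates did not deviate together (correlations of deviations 0.0139 to 0.0189), so the numbers were not taken to pair samples.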

Additional observations from a re-analysis of the deposited data

How the results depend on the processing

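DESeq2 gave 184 higher and 55 lower genes for IL-5 in T cells, 39 and 80 in microglia, 174 and 74 for the difference of responses, 1290 and 1845 for T cells over microglia after IL-5 (5 members higher), and 1342 and 1718 after PBS (6 members higher). Without a filter the counts were 2 higher in T cells, 27 and 4 for the difference, 607 higher for T cells over microglia after IL-5, and 641 and 1081 after PBS. All 8 libraries in one fit gave 2 higher in T cells. Library size scaling gave 958 and 336 after IL-5 (6 members) and 919 and 376 after PBS. The 4 libraries of a contrast alone gave 45 and 172 after IL-5 (1 member) and 1072 lower after PBS.

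Some small values turned. For IL-5 in T cells, Eomes became -1.48e-05 with RLE factors, -0.048 with library size and -0.041 with all 8 libraries, and with scaling to T cell markers Id3 became 0.25 and Zeb2 0.25. For microglia, Id2 became 0.018 in DESeq2, 0.019 with RLE factors, 0.19 with scaling to microglial markers, 0.016 with a filter at 5 CPM and 0.0023 with all 8 libraries. With library size Id3 over microglia after PBS became 0.0012 and Bcl2l1 after IL-5 0.12. The cause was not tested.

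The replicate number as a block turned Zeb2 in T cells to 0.80 and called 4 members higher after PBS in place of 3, Eomes being added; it left the calls of the other members as they were, with 0 called for IL-5 in T cells. Samples with the same number share only that number.

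Leaving out each library in turn leaves 1 sample in a group, which is then assumed to vary like the others. Counts ranged from 0 to 1 higher in T cells, 0 to 532 higher and 0 to 723 lower in microglia, 0 to 178 and 0 to 54 for the difference (0 to 1 members), 101 to 1028 and 284 to 1181 over microglia after IL-5, and 134 to 831 and 349 to 1197 after PBS (1 to 5 members). In T cells, log2 fold changes of IL-5 over PBS ranged from -0.035 to 0.54 for Tcf7, -0.30 to 0.54 for Lef1, -3.62 to 3.65 for Bach2, -0.21 to 0.33 for Tbx21, -0.74 to 1.65 for Eomes, -0.69 to 0.42 for Id3, -0.011 to 1.52 for Satb1, -0.24 to 0.34 for Ctnnb1, -0.997 to 2.87 for Zeb2 and -1.65 to 0.093 for Tcf3. In microglia they ranged from -0.12 to 0.10 for Id2 and -1.47 to 10.23 for Ccr7. The difference of responses ranged from -2.73 to 4.46 for Bach2, -0.97 to 0.18 for Id3, -9.95 to 2.21 for Ccr7 and -0.56 to 0.48 for Bcl2, and Bach2 over microglia after IL-5 from -4.42 to 1.11. Where Eomes, Ccr7 and Tcf7 had 0 counts in a microglia library, the depth sets only an upper limit.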
